A study of Mus musculus with 8 samples.

Results

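Inflammasomes are cytosolic complexes that switch on inflammatory caspases, and 8 genes of this machinery were followed here: the sensors Nlrp3, Nlrp1b and Aim2, the adaptor Pycard, the caspases Casp1, Casp4 and Casp8, and the pore-forming gasdermin Gsdmd. They were chosen by name, as genes of the inflammasome and of pyroptosis, from the 45777 genes of the deposited table. Earlier results of these data were known when they were chosen. All 8 were found by symbol, and all 8 passed the filter on low counts. The libraries came from primary hepatic stellate cells, the vitamin A-storing liver cells that become myofibroblasts, of male wild-type C57BL/6 mice. One group had received a control siRNA (siControl) and the other an siRNA against PAK4 (siPAK4), a kinase acting on the actin cytoskeleton, with 4 libraries in each group. The design text places the knockdown during activation of the cells, and all 8 libraries are labelled batch 1. The labels give no animal age, culture time or siRNA sequence, and do not describe the purity of the preparation. Nor do they say whether the replicates came from separate animals, and p-values here therefore cover the spread among these 8 libraries, which may be only technical.

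In the canonical pathway a sensor meets its trigger and gathers the adaptor ASC, encoded by Pycard, into a large speck on which pro-caspase-1 cleaves itself. Active caspase-1 matures the cytokines IL-1 beta and IL-18 and cuts gasdermin D, whose freed amino-terminal part forms pores in the plasma membrane. In the non-canonical pathway mouse caspase-11, encoded by Casp4, binds bacterial lipopolysaccharide in the cytosol and cuts gasdermin D directly. Caspase-8 is the initiator caspase of death receptors and can also join ASC specks or cleave gasdermin D. In the liver these genes are best known from Kupffer cells and other macrophages, and inflammasome activity has also been described in stellate cells.

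Library totals ran from 55728583 to 61535063 counts. Pak4, the targeted gene, lay below the whole siControl range in all 4 siPAK4 libraries (17.2 ± 1.14 in siControl against 6.32 ± 1.13 in siPAK4, in counts per 1000000, CPM, mean ± SD, n = 4 each, as for all such values). Stellate cell genes such as Dcn (425 CPM in siControl) were present, but so were macrophage and endothelial transcripts in quantity. The lysozyme gene Lyz2 averaged 7815 CPM in siControl and 4850 CPM in siPAK4. The 17 macrophage and Kupffer cell markers summed to 10158 to 11665 CPM in siControl and 5885 to 9271 CPM in siPAK4, with 10 of 16 tested markers lower and 0 higher. On average Lyz2 made up most of this sum in both groups. The Kupffer cell gene Cd5l fell from 283 to 42.0 CPM, the complement gene C1qa from 147 to 34.2 CPM and Marco, which encodes a scavenger receptor, from 335 to 148 CPM. The general macrophage genes Adgre1 (386 ± 17.9 against 425 ± 69.9 CPM) and Cd68 (241 ± 11.1 against 234 ± 25.5 CPM) did not pass the test. The Kupffer cell lectin gene Clec4f was near 0, with 0 to 12 counts per library. The 12 endothelial markers summed to 6212 to 6424 CPM in siControl and 3705 to 5386 CPM in siPAK4 (6 lower, 3 higher of 12), and the 12 stellate cell markers to 1399 to 1784 and 903 to 1110 CPM (6 lower, 1 higher of 11). Hepatocyte markers summed to 1.49 to 3.16 CPM in siControl and 6.49 to 16.3 CPM in siPAK4 (2 of 4 higher). The neutrophil markers summed to at most 14.1 CPM in a library, nearly all of it S100a8, with Ly6g, Elane and Retnlg at 0 reads, and the lymphocyte markers to at most 7.06 CPM (1 of 4 tested lower, 0 higher). Dendritic cell markers summed to 86.8 to 101 CPM in siControl and 63.3 to 76.6 CPM in siPAK4 (1 higher and 1 lower of 4), and cholangiocyte markers to 1127 to 1599 and 1024 to 1495 CPM (0 of 4 past the test). The cholangiocyte sum was nearly all Spp1 (1392 and 1183 CPM), a gene that macrophages also express, while Krt19, Krt7, Epcam and Sox9 averaged at most 2.67 CPM. In siPAK4 replicate 3 the macrophage sum was the highest and the endothelial sum the lowest of the siPAK4 libraries. In such bulk RNA, fewer cells of a type and less RNA per cell cannot be told apart, and the part of these shifts in the values below was not tested.

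**Figure D1:**
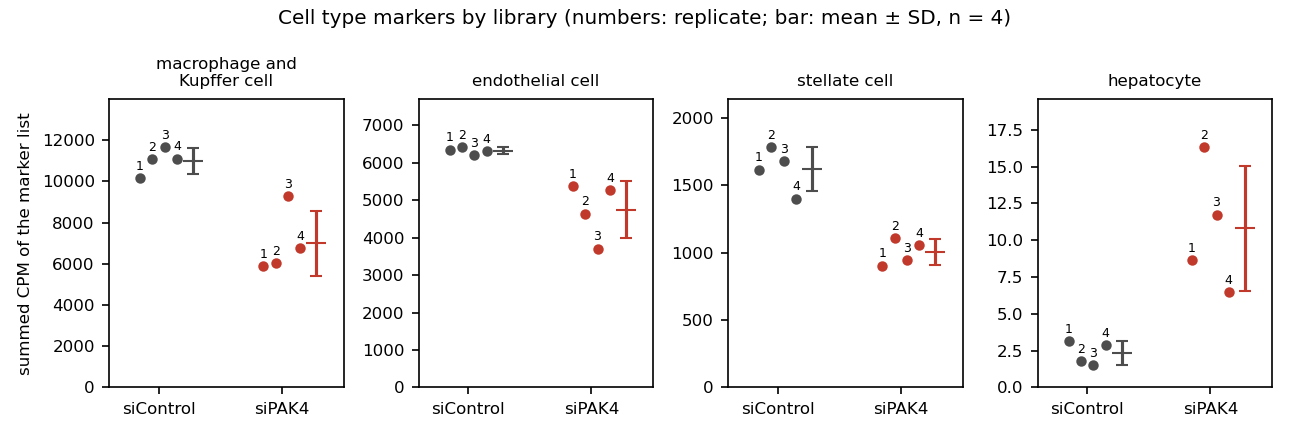
Summed CPM of the marker genes of 4 cell types in each library (points, numbered by replicate), with the mean ± SD of each group. The macrophage, endothelial and stellate cell sums were lower in all 4 siPAK4 libraries than in any siControl library, and siPAK4 replicate 3 lies apart from the other siPAK4 libraries in the macrophage and endothelial sums.

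With siPAK4 the caspases rose, the sensors Nlrp1b and Nlrp3 fell, and the adaptor, the third sensor and the gasdermin did not pass the test. Casp4 changed most among the rises (1.68-fold), followed by Casp1 (1.36-fold) and Casp8 (1.27-fold). Nlrp1b went to 0.561 of its siControl level and Nlrp3 to 0.845. Genes were called by edgeR's quasi-likelihood test at an adjusted p under 0.05 over 17975 tested genes. Of the 8 genes 3 were higher and 2 lower, where 12.4% of all tested genes were higher and 14.5% lower, 26.9% in all. The median log2 fold change was 0.072 over the 8 genes and 0.0052 over all tested genes. In these 5 genes the CPM values of the groups did not overlap, which held for 28.8% of all tested genes. The 3 rises were called in every alternative analysis run, as was the fall of Nlrp1b, whereas that of Nlrp3 was lost in 10 of 17.

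**Figure D2:**
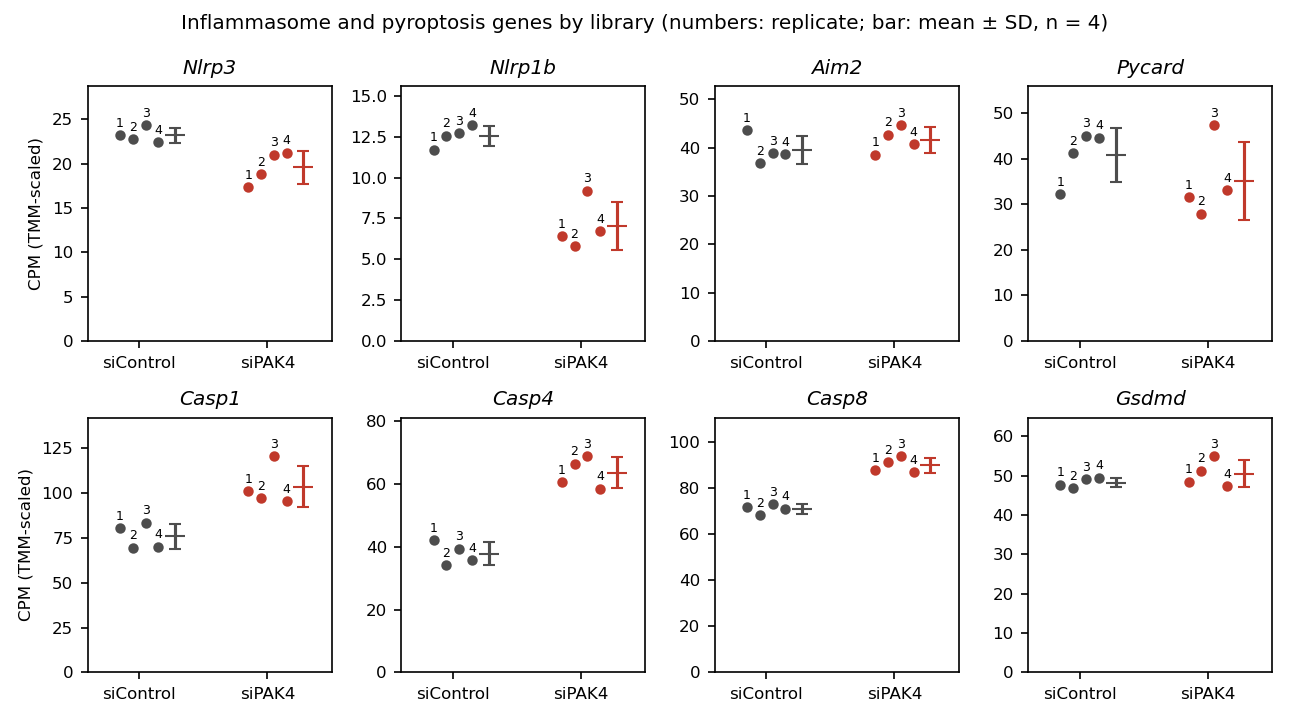
CPM of each of the 8 genes in every library (points, numbered by replicate) with the mean ± SD of each group of 4 libraries. Casp1, Casp4 and Casp8 lie higher in all siPAK4 libraries than in any siControl library, Nlrp1b and Nlrp3 lie lower, and the groups overlap for Aim2, Pycard and Gsdmd.

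Casp4 (NCBI gene 12363, mm10 chromosome 9, 5308849 to 5336791) encodes caspase-11, the lipopolysaccharide-binding caspase of the non-canonical pathway. Its level was 42.0, 34.1, 39.4 and 35.7 CPM in siControl replicates 1 to 4. In siPAK4 replicates 1 to 4 it was 60.6, 66.5, 68.8 and 58.5 CPM. Every siPAK4 library stood above every siControl library, and the lowest siPAK4 value was above the highest siControl value by more than the spread within either group. The log2 fold change was 0.75 (SE 0.0793, adjusted p = 4.7e-05).

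Casp1 (gene 12362, chromosome 9, 5298517 to 5307281), which encodes the protease of the canonical inflammasome, lies beside Casp4 on the same strand. It was at 80.2, 69.4, 83.4 and 69.9 CPM in siControl replicates 1 to 4 and at 101, 97.0, 120 and 95.3 CPM in siPAK4 replicates 1 to 4. The highest value was that of siPAK4 replicate 3, the siPAK4 library with the highest macrophage marker sum. This was not particular to Casp1. Among the siPAK4 libraries replicate 3 was also the highest for Casp4, Casp8, Nlrp1b, Aim2, Pycard and Gsdmd. A link to the marker sum was not tested. The groups did not overlap (log2 fold change 0.45, SE 0.0865, adjusted p = 0.0027).

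Casp8 (gene 12370, chromosome 1, 58795233 to 58847503) moved least of the caspases and varied least between libraries. Its level was 71.6, 68.0, 72.9 and 70.9 CPM in siControl replicates 1 to 4. In siPAK4 replicates 1 to 4 it was 87.7, 91.0, 93.6 and 86.7 CPM, again with no overlap (log2 fold change 0.34, SE 0.0506, adjusted p = 0.00049).

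Casp12 (22.99 ± 1.77 against 22.1 ± 1.33 CPM), the next tested gene after Casp4 on chromosome 9 and a caspase of the same inflammatory group, did not pass the test (log2 fold change −0.06, adjusted p = 0.62). Its direction turned with library totals as the scaling (0.031) and with FPKM (0.046). From Casp1 to Casp4 the gap is 1568 bases, and from Casp4 to Casp12 8651 bases, so within this caspase cluster neighbouring genes gave different results.

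The sequences before the starts of Casp4, its neighbour Casp1 and Nlrp1b are shown, because Casp4 and Nlrp1b had the largest rise and fall among the 8 genes and Casp1 lies beside Casp4. RefSeq (GRCm38.p6, the build also called mm10) gave start sites for 7 of the 8 genes. The 250 bases before each start were searched on both strands for 4 motifs. These were the interferon-stimulated response element ISRE (GAAA, any 2 bases, GAAA), the interferon gamma-activated site GAS (TTCNNNGAA), an NF-kB site (GGG, any 2 bases, TTTCC) and a PU.1 site (the letters in capitals in the Nlrp1b sequence). Each sequence runs 5′ to 3′ on the strand of the gene and ends at the base before the start, with motif matches in capitals.
Casp4, chr9:5308599-5308848, plus strand: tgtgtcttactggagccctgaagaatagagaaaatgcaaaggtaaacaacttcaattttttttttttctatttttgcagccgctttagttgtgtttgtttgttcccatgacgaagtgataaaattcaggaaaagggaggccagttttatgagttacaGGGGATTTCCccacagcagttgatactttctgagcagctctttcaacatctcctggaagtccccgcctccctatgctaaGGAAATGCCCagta
Casp1, chr9:5298267-5298516, plus strand: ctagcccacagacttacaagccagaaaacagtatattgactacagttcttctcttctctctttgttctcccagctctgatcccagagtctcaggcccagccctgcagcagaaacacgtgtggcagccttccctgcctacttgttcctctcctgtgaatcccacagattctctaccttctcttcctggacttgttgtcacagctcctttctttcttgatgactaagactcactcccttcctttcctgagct
Nlrp1b, chr11:71230734-71230983, minus strand: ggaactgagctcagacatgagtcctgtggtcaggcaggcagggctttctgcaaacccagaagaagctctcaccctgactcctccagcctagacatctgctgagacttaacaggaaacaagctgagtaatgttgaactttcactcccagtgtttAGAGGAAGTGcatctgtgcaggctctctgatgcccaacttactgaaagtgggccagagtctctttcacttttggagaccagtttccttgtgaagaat
The Casp4 window held the NF-kB letters at 2 places that do not overlap, beginning 93 and 14 bases before the start (GGGGATTTCC and, in the other orientation, GGAAATGCCC). By comparison, 1.41% of all 32851 windows held those letters. A second annotated start of Casp4 lies just beyond the printed stretch, and the same matches begin 104 and 25 bases before it. The Nlrp1b window held the PU.1 letters 97 bases before its start, as did 0.323% of all windows, and the window of its other annotated start had no match to any of the 4 motifs. The windows of Casp1, Casp8, Aim2, Pycard and Nlrp3 held none of the 4. ISRE letters were in 2.98% and GAS letters in 7.02% of all windows. A match describes letters, not a bound site.

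Nlrp1b (gene 637515, chromosome 11, 71152574 to 71242514) encodes a sensor of bacterial proteases that is held in check by the peptidases DPP8 and DPP9. Its level was 11.7, 12.6, 12.7 and 13.2 CPM in siControl replicates 1 to 4. In siPAK4 replicates 1 to 4 it was 6.39, 5.82, 9.20 and 6.73 CPM, with replicate 3 nearest to siControl. All siPAK4 libraries were below all siControl libraries (log2 fold change −0.83, SE 0.129, adjusted p = 0.00062). Its chromosomal neighbours are the related genes Nlrp1a and Nlrp1c-ps, a pseudogene whose annotated span overlaps that of Nlrp1b. Nlrp1a went from 7.01 ± 0.557 to 4.95 ± 0.944 CPM (−0.50 on the log2 scale, adjusted p = 0.016) and Nlrp1c-ps from 4.21 to 1.92 CPM (−1.13, adjusted p = 0.0024). The Nlrp1a call was lost without siPAK4 replicate 2 (adjusted p = 0.053) and with FPKM (adjusted p = 0.066). How the counting handled reads that match several genes is not given in the sources used here, so the separate values of these related genes are uncertain.

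Nlrp3 (gene 216799, chromosome 11, 59541569 to 59566955) encodes the sensor of ion fluxes, crystals and other damage that is the most studied of the inflammasome sensors. It was at 23.3, 22.8, 24.4 and 22.4 CPM in siControl replicates 1 to 4 and at 17.4, 18.8, 21.0 and 21.3 CPM in siPAK4 replicates 1 to 4. Here too the groups did not overlap, but siPAK4 replicates 3 and 4 came close to siControl (log2 fold change −0.24, SE 0.0762, adjusted p = 0.034). Over 17 alternative analyses the direction held and the adjusted p ran from 0.014 to 0.17. The call was lost without any single siControl library and without siPAK4 replicate 1 or 2 (adjusted p 0.051 to 0.097 over those 6). It was also lost with library totals as the scaling (adjusted p = 0.12), TPM with either pseudocount (0.093 and 0.097) and FPKM (0.17).

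Aim2 (gene 383619, chromosome 1, 173349547 to 173466040), the sensor of double-stranded DNA in the cytosol, did not pass the test. It was at 43.6, 36.8, 38.8 and 38.7 CPM in siControl replicates 1 to 4 and at 38.6, 42.7, 44.7 and 40.7 CPM in siPAK4 replicates 1 to 4. The groups overlapped throughout (log2 fold change 0.08, SE 0.07, adjusted p = 0.46). Aim2 belongs to the Ifi200 family of DNA-binding genes, and the next tested gene on the chromosome, its relative Ifi206, went from 1.87 to 8.98 CPM (2.26 on the log2 scale, adjusted p = 0.00011).

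Pycard (gene 66824, chromosome 7, 127991373 to 127993867), the adaptor gene, varied most between libraries. Its level was 32.2, 41.1, 45.1 and 44.6 CPM in siControl replicates 1 to 4. In siPAK4 replicates 1 to 4 it was 31.6, 27.9, 47.4 and 33.1 CPM. The highest of all 8 values was that of siPAK4 replicate 3, and siControl replicate 1 lay among the other siPAK4 libraries. The leukocyte gene Ptprc was likewise at 294 CPM in siPAK4 replicate 3 and at 186 to 202 CPM in the other siPAK4 libraries. Pycard did not pass the test (log2 fold change −0.22, SE 0.154, adjusted p = 0.33). Without siPAK4 replicate 3 it was called lower (−0.40, adjusted p = 0.018), as was Ptprc (−0.39, adjusted p = 0.00064), and the 8 genes then gave 3 higher and 3 lower.

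Gsdmd (gene 69146, chromosome 15, 75862144 to 75867408), whose product forms the pyroptotic pore, was nearly level. Its values were 47.7, 46.7, 49.0 and 49.4 CPM in siControl replicates 1 to 4 and 48.5, 51.2, 54.9 and 47.3 CPM in siPAK4 replicates 1 to 4. The groups overlapped (log2 fold change 0.07, SE 0.0602, adjusted p = 0.47), and no alternative analysis of the 17 called it (adjusted p 0.069 to 0.81).

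Levels can be set against each other between genes on the deposited TPM scale, which corrects for transcript length. In siControl Casp1 was the most abundant (107 ± 11.8 TPM). Casp8 (61.6 ± 2.70), Casp4 (58.3 ± 6.09) and Gsdmd (57.9 ± 1.35) followed, and these neighbours in the order overlapped between libraries. Pycard (40.7 ± 5.34), Aim2 (26.8 ± 2.37), Nlrp3 (12.5 ± 0.656) and Nlrp1b (5.62 ± 0.310) came next, each below all libraries of the gene before it. In siPAK4 Casp1 stood at 150 ± 12.0 TPM, and Casp4 at 101 ± 9.33 TPM was second, above every library of Casp8 (80.3 ± 5.87). There Pycard (35.7 ± 6.58) and Aim2 (28.1 ± 2.00) overlapped. All sensors were thus listed below the adaptor on average, and the adaptor below all caspases, in both groups.

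**Figure D3:**
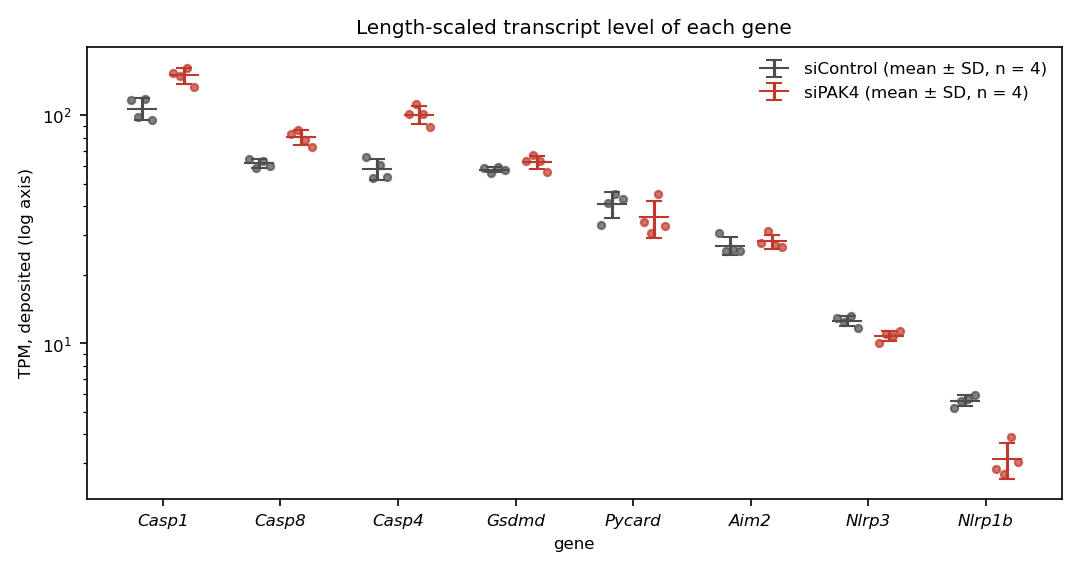
Deposited TPM of the 8 genes on a log axis, in the order of their siControl means, with each library as a point and the mean ± SD of each group of 4. Casp1 is highest in both groups (107 and 150 TPM), and Casp4 passes Casp8 in siPAK4.

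Ratios between genes within a library do not depend on how libraries are scaled to each other, so 5 ratios were compared between the groups by a two-sided exact permutation test. With 4 libraries against 4 the smallest p this test can give is 0.0286. Adjusted over the 5 ratios it came to 0.048 only because Casp1 to Pycard, Casp4 to Casp1 and Gsdmd to Casp1 all reached it. These ratios all hold Casp1, whose own CPM groups did not overlap, so they are not separate findings. In order of replicate, Casp1 counts per Pycard count were 2.49, 1.69, 1.85 and 1.57 for siControl, then 3.19, 3.48, 2.54 and 2.88 for siPAK4. This was a difference of 0.68 in the log2 ratio (exact p = 0.0286, adjusted p = 0.048), and the ratios were higher in 4 of 4 siPAK4 libraries than in any siControl library. The nearest values, in siControl replicate 1 and siPAK4 replicate 3, were almost equal.

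Casp4 also gained on Casp1. In order of replicate, Casp4 counts per Casp1 count were 0.524, 0.491, 0.473 and 0.511 for siControl, then 0.601, 0.686, 0.572 and 0.614 for siPAK4 (difference in log2 ratio 0.30, exact p = 0.0286, adjusted p = 0.048). Gsdmd lost ground to Casp1, from 0.594, 0.674, 0.588 and 0.707 Gsdmd counts per Casp1 count in siControl to 0.481, 0.528, 0.456 and 0.497 in siPAK4 (−0.38, exact p = 0.0286, adjusted p = 0.048). In both of these ratios the groups did not overlap. The log2 ratio of Nlrp3 to Pycard differed by −0.01 (exact permutation p = 0.94) and that of Aim2 to Pycard by 0.31 (exact permutation p = 0.29), each with wide overlap. When a siPAK4 library was left out the differences were 0.61 to 0.76 for Casp1 to Pycard, 0.25 to 0.34 for Casp4 to Casp1 and −0.42 to −0.35 for Gsdmd to Casp1, and the adjusted p was 0.0714 or 0.0952. With 3 libraries against 4 the smallest exact p is 0.0286, and after adjustment it passes only where at least 3 of the 5 ratios reach it, so these p-values say little about stability. Leaving out a siControl library left the adjusted p at 0.048.

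**Figure D4:**
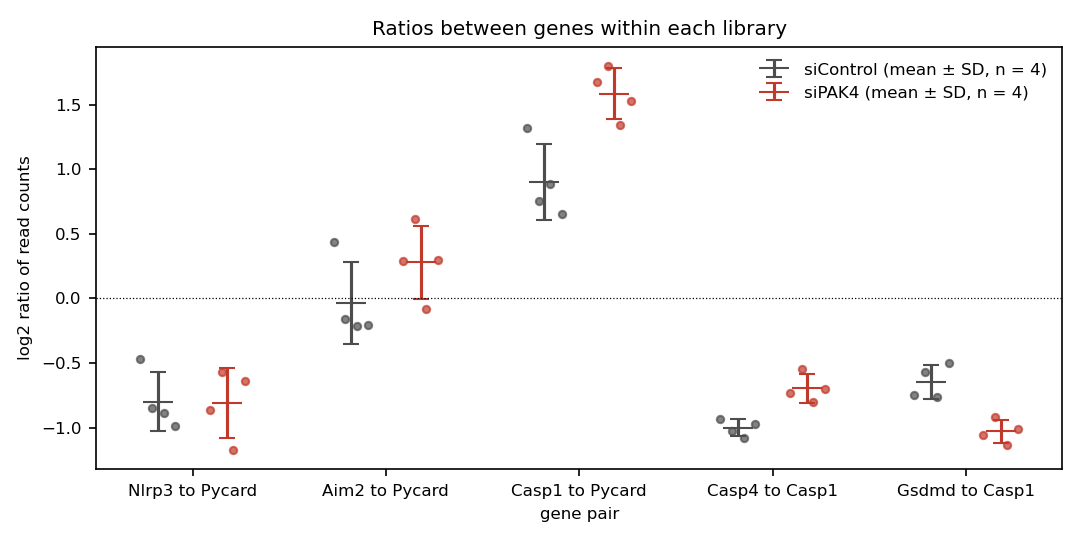
Log2 ratio of the read counts of 2 genes within each library (points) for 5 gene pairs, with the mean ± SD of each group of 4. Casp1 to Pycard and Casp4 to Casp1 lie higher in all siPAK4 libraries, Gsdmd to Casp1 lies lower, and the pairs with Nlrp3 or Aim2 over Pycard overlap.

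The wider pathway was read from lists of 95 further genes grouped by role, of which 90 were tested. In all, 32 were higher, 9 lower and 49 did not pass, where 12.4% of all tested genes were higher and 14.5% lower. The share of higher genes was above that of all tested genes, and the share of lower genes below it. The lists were chosen with earlier results of these data known, so this comparison is not a test of the pathway. Counts of higher genes ran from 32 to 44 and of lower genes from 1 to 14 over the alternative analyses, with 36 and 14 when siPAK4 replicate 3 was left out.

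Cytokines that inflammasomes act on changed unevenly. Il1b, the main cytokine matured by caspase-1, was at 4.98, 2.07, 2.83 and 3.08 CPM in siControl replicates 1 to 4. In siPAK4 replicates 1 to 4 it was 12.2, 30.6, 15.5 and 16.4 CPM (log2 fold change 2.53, SE 0.331, adjusted p = 0.00046). Every siPAK4 library was above every siControl library, with siPAK4 replicate 2 far above the rest. Il1a, whose product acts on the same receptor, rose from 27.9 ± 9.26 to 73.6 ± 15.2 CPM (1.40, adjusted p = 0.0014). Il18, the other caspase-1 substrate, was low and did not pass (4.72 ± 0.397 against 3.90 ± 1.05 CPM, −0.28, adjusted p = 0.25). Without siPAK4 replicate 3 Il18 was called lower (−0.49, adjusted p = 0.0089). The receptor antagonist gene Il1rn was at 178 ± 26.4 against 214 ± 18.9 CPM (0.26, adjusted p = 0.074). It was called higher in 5 of 17 alternatives: without siControl replicate 1 (adjusted p = 0.019) or siPAK4 replicate 1 (adjusted p = 0.046), with DESeq2 (adjusted p = 0.042), with library totals (adjusted p = 0.015) and with FPKM (adjusted p = 0.026). Of the 7 genes of this list 2 were higher and 5 did not pass, where 12.4% of all tested genes were higher and 14.5% lower.

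Of the 8 listed genes that bear on the access of lipopolysaccharide to caspase-11, 6 were higher and 2 did not pass, where 12.4% of all tested genes were higher. The median log2 fold change of this list was 1.15. Guanylate-binding proteins, which coat bacteria in the cytosol, made up 4 of the 6. Gbp5 went from 3.28 ± 0.684 to 10.7 ± 0.672 CPM (log2 fold change 1.71), Gbp3 from 39.4 ± 7.34 to 122 ± 7.58 CPM (1.63), Gbp7 from 65.6 ± 11.5 to 147 ± 5.08 CPM (1.17) and Gbp2 from 49.1 ± 3.17 to 108 ± 7.07 CPM (1.14), all with adjusted p of 1.6e-05 or below. The others were Gm12250, an immunity-related GTPase gene (8.98 ± 1.93 to 25.5 ± 3.06 CPM), and the interferon receptor gene Ifnar2 (89.97 ± 2.08 to 119 ± 1.93 CPM). The other receptor gene Ifnar1 (−0.18, adjusted p = 0.068) and Hmgb1 (0.003, adjusted p = 0.98), whose product carries lipopolysaccharide into cells, did not pass. The count of 6 higher genes was the same in every alternative analysis, and 1 gene of the list was called lower with DESeq2 and without siPAK4 replicate 4.

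Other sensors went both ways, with 7 of 18 higher and 2 lower, where 12.4% and 14.5% of all tested genes were. The risers with the smallest p were relatives of Aim2 from the Ifi200 family, namely Ifi204 (109 ± 17.4 to 220 ± 11.3 CPM, log2 fold change 1.02), Ifi211 (1.02) and Ifi209 (1.34), and Nlrc5, an activator of major histocompatibility class I genes (0.57), with adjusted p of 0.00011 or below. The NAIP and NLRC4 proteins sense flagellin and bacterial needle proteins, and neither Nlrc4 (9.38 ± 0.466 against 8.75 ± 2.15 CPM, −0.10, adjusted p = 0.66) nor the flagellin receptor gene Naip5 (23.1 ± 0.917 against 25.2 ± 1.02 CPM, 0.12, adjusted p = 0.16) passed. Naip5 was called higher with library totals (adjusted p = 0.016) and with FPKM (adjusted p = 0.034). Nlrp6 had 0 reads.

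Among genes that prime or license NLRP3, 3 of 15 were higher and 3 lower, where 12.4% and 14.5% of all tested genes were. The counts became 7 and 1 with library totals and 6 and 1 with FPKM. Tlr2, a receptor for bacterial lipoproteins, rose from 68.8 ± 11.5 to 135 ± 11.8 CPM (0.97 on the log2 scale, adjusted p = 7e-05), and Brcc3, which removes ubiquitin from NLRP3, rose by 0.34 (adjusted p = 0.003). Kcnk6, a potassium channel gene, fell from 28.1 ± 1.54 to 21.3 ± 1.34 CPM (−0.40, adjusted p = 0.0013). The antiviral adaptor gene Mavs fell by 0.24 on the log2 scale (adjusted p = 0.011, but 0.057 with library totals and 0.082 with FPKM). Nek7, the kinase-family partner that NLRP3 needs to assemble, did not pass (82.3 ± 5.87 against 77.1 ± 3.37 CPM, −0.09, adjusted p = 0.30).

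Of 10 tested genes for other caspases, gasdermins and membrane rupture or repair, 1 was higher and 1 lower, a share near the 26.9% called over all tested genes. Chmp4b, a component of the ESCRT machinery that repairs pierced membranes, rose from 133 ± 3.49 to 169 ± 4.15 CPM (0.35 on the log2 scale, adjusted p = 0.00027). Casp6, an executioner caspase gene, fell from 17.8 ± 1.92 to 14.4 ± 1.68 CPM (−0.30, adjusted p = 0.045). That call was lost without any single library other than siControl replicate 4 or siPAK4 replicate 1, with adjusted p from 0.056 to 0.14. It was also lost with library totals (0.16), no filter on low counts (0.054), TPM with either pseudocount (0.18 and 0.17) and FPKM (0.15). Ninj1, whose product ruptures the membrane after pore formation, did not pass (111 ± 11.3 against 99.2 ± 7.34 CPM, −0.16, adjusted p = 0.17), but was called lower without siControl replicate 1 (−0.23, adjusted p = 0.036). Gsdme, a gasdermin cut by caspase-3, was at 7.82 ± 0.728 against 7.57 ± 0.519 CPM (−0.05, adjusted p = 0.77), and its sign turned with library totals (0.041).

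Genes around caspase-8 and necroptosis, the death pathway that caspase-8 restrains, had 3 of 11 higher and 2 lower. Over all tested genes 12.4% were higher and 14.5% lower. Zbp1, a sensor of Z-form nucleic acids that engages RIPK3 and caspase-8, was at 9.57, 6.36, 8.18 and 5.16 CPM in siControl replicates 1 to 4 and at 32.5, 39.0, 35.2 and 30.6 CPM in siPAK4 replicates 1 to 4 (log2 fold change 2.23, SE 0.162, adjusted p = 5.9e-06). No siControl library came near the lowest siPAK4 value. Mlkl, which encodes the pore-forming effector of necroptosis, rose from 77.4 ± 2.80 to 104 ± 6.95 CPM (0.43, adjusted p = 0.00031) and the death receptor gene Fas from 12.9 ± 1.77 to 21.0 ± 2.32 CPM (0.70, adjusted p = 0.00074). Tnfrsf10b, another death receptor gene, fell (−0.39, adjusted p = 0.014, but 0.084 on log2(TPM + 1), 0.083 on log2(TPM + 0.1) and 0.053 with FPKM). Ripk3, which encodes the kinase that activates MLKL, was at 60.5 ± 2.43 against 65.5 ± 2.60 CPM (0.11, adjusted p = 0.15). Ripk3 was called higher with library totals (adjusted p = 0.011) and with FPKM (adjusted p = 0.014).

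In the list of inhibitors 4 of 11 genes were higher and 0 lower, where 12.4% and 14.5% of all tested genes were. Trim30a, whose product lowers NLRP3 activity, rose from 77.7 ± 12.6 to 172 ± 9.86 CPM (log2 fold change 1.15), and Birc3 (0.46) and Birc2 (0.36), the cellular inhibitor of apoptosis genes, and Tnfaip3 (0.45), which encodes the ubiquitin editor A20, rose with adjusted p of 0.0014 or below. Transcription factors known to act on these genes had 6 of 10 higher and 1 lower, against the same 12.4% and 14.5%. Irf9 (43.5 ± 5.10 to 78.6 ± 2.91 CPM, log2 fold change 0.85), Nfkb1 (0.54) and Cebpb (0.75) rose with adjusted p of 5.9e-05 or below, and Irf1 rose by 0.23 (adjusted p = 0.0039). Irf2, a factor known to drive Gsdmd transcription, fell from 22.3 ± 2.43 to 17.5 ± 2.18 CPM (−0.35, adjusted p = 0.025). The Irf2 call was lost without siControl replicate 1 or 2 or siPAK4 replicate 2 (adjusted p 0.063 to 0.080). It was also lost with library totals (adjusted p = 0.0726), TPM with either pseudocount (0.081 and 0.079) and FPKM (0.064).

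**Figure D5:**
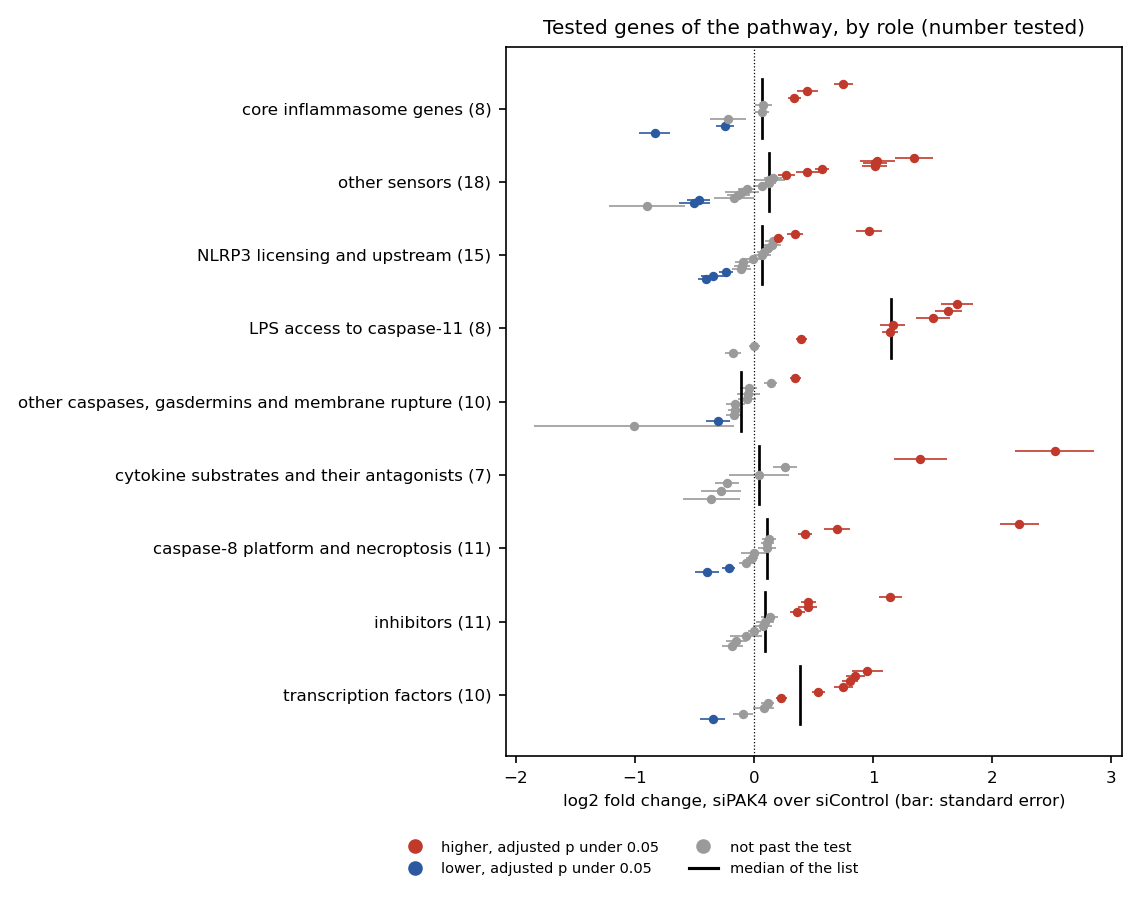
Log2 fold change of siPAK4 over siControl (horizontal axis, bars show the standard error) for every tested gene of the 8 core genes and of 8 lists of related genes, coloured by call, with the median of each list as a black line. The list of genes that bear on the access of lipopolysaccharide to caspase-11 has the highest median (1.15), and Il1b (2.53) and Zbp1 (2.23) are the points farthest right.

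Profiles like those of the 8 genes were looked for among tested genes of at least 5 mean CPM, by the root mean square difference of log2(CPM + 1) over the 8 libraries after each gene was centred on its own mean. Genes that differ by similar amounts between the groups come out as alike by this measure. Nearest to Casp4 were Gclc, the glutathione synthesis gene (0.030 log2 units), F10, which encodes a coagulation factor (0.036), and the peroxiredoxin gene Prdx6 (0.042). Nearest to Casp1 were Sp140, a nuclear body gene of leukocytes (0.027), Slamf7, a leukocyte surface receptor gene (0.055), and the circadian repressor gene Nr1d2 (0.063). For Casp8 they were the splicing gene Snw1 (0.030), the innate immune kinase gene Tbk1 (0.031) and Tor1aip2 (0.031). Nlrp1b was closest to Cd300ld, a myeloid receptor gene (0.061), Aldoc (0.064) and Gm2a (0.065), and Nlrp3 to Fam129a (0.036), the lysosomal phosphatase gene Acp2 (0.037) and the calpain gene Capn2 (0.040). Pycard had no gene as near, the closest being Arhgap9 (0.076), the macrophage receptor gene Trem2 (0.078) and Churc1 (0.078). Around Aim2 lay Fam20c (0.034), Gm6710 (0.036) and Cdk8 (0.036), and around Gsdmd Hectd3 (0.025), Bpnt1 (0.025) and Cab39 (0.027), profiles that were nearly level. None of the 8 genes was among the 3 nearest of another.

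On the chromosome, the nearest tested gene on either side was 4933439C10Rik (log2 fold change 0.39, adjusted p = 0.12) and Mprip (−0.13, adjusted p = 0.19) for Nlrp3. On the higher-coordinate side of Pycard, Gm19366 did not pass (−0.22, adjusted p = 0.66). Beside Casp8, Trak2 did not pass (−0.17, adjusted p = 0.080), whereas the weakly expressed Gm39646 was higher (0.0611 against 0.462 CPM, adjusted p = 0.0028). Gm34851 (adjusted p = 0.37) and Mroh6 (adjusted p = 0.59) beside Gsdmd, Cadm3 (adjusted p = 0.32) beside Aim2 and Gm7390 (adjusted p = 0.71) beside Casp1 did not pass.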

How the data were processed

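Polyadenylated RNA was sequenced from 4 siControl and 4 siPAK4 libraries. The tests used raw read counts per gene, deposited by the authors without normalization. TPM and FPKM were also deposited by the authors and are scaled to gene length and depth; TPM served for levels between genes, and both for alternatives. The submitters' processing notes name HISAT2 2.1.0, Bowtie2 2.3.4.1, StringTie 2.1.3b and build mm10. The sources used here give neither the counting step nor its strand setting, and 0 value columns were left without a sample. No 2 libraries of a group agreed within sampling noise (chi-square per degree of freedom 12.7 to 67.8).

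Genes were kept by filterByExpr (minimum count 10, 17975 genes), scaled by TMM and tested with edgeR 4.0.16 (quasi-likelihood, robust, Benjamini-Hochberg over all tested genes, threshold 0.05). CPM use the TMM-scaled library size, and standard errors come from the F statistic. Ratios had 0.5 added to each count and an exact permutation test. Only the edgeR step was tested on simulated data, not the ratio test. Alternatives were DESeq2 1.42.0, library totals, no filter, a mean of at least 1 CPM, limma 3.58.1 (voom, TPM, FPKM), a replicate block and leaving out each library. Matching replicate numbers mark no stated pairing, so the block was not used in the tests reported.

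The 8 genes and all lists were chosen with earlier results of these data known. Named were the 8 genes, Pak4, up to 4 called genes with the smallest adjusted p from each list, 15 fixed pathway genes, 12 fixed markers, the 3 nearest profiles and the nearest tested chromosomal neighbours. Genes outside this rule (Lyz2, C1qa, Marco, Spp1, Krt19, Krt7, Epcam, Sox9, Ly6g, Elane, Retnlg, Nlrp6, Gm12250, Ifnar1, Ifnar2 and Hmgb1) were chosen after their values were seen, and 3 genes are not reported here. The symbols Mnda, Pyhin1 and Irgb10 were matched through RefSeq synonyms to Ifi211, Ifi209 and Gm12250.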

Additional observations from a re-analysis of the deposited data

Results flagged for a closer look

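In groups of 4 libraries, a library was picked out where its gap to the nearest other, divided by the range of the group, passed Dixon's 95% critical value. Among 128 groups checked 10 had such a library, where chance gives about 1 in 20. Of the 8 core genes none had one in its CPM, but the log2 ratio of Aim2 to Pycard did in siControl replicate 1 (0.43, against −0.21 to −0.16 in the others).

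In siPAK4 replicate 3, Ptprc stood at 294 CPM (the others 186 to 202), Il18 at 5.46 CPM (3.27 to 3.55) and Tnfrsf10b at 43.1 CPM (57.3 to 59.4). In siPAK4 replicate 4, Brcc3 was at 37.2 CPM (41.0 to 41.7). In siControl replicate 1, Nlrp1a was at 6.18 CPM (7.27 to 7.30) and Ripk3 at 64.2 CPM (59.1 to 59.7). Des was at 21.9 CPM in siControl replicate 2 (16.1 to 17.1), Nek7 at 91.0 CPM in siControl replicate 3 (78.6 to 80.6) and Adgre1 at 359 CPM in siControl replicate 4 (391 to 397).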

How the results depend on the processing

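Casp1, Casp4, Casp8 and Nlrp1b kept direction and call in all 17 alternatives, and Aim2 and Gsdmd stayed uncalled. The number of the 8 genes called higher was 3 throughout. The number called lower was 1 with library totals, TPM (either pseudocount) and FPKM, and 1 to 3 when 1 library was left out. All tested genes called higher and lower were 3877 and 1859 with library totals (67.6% higher, against 46.1%) and 3619 and 1712 with FPKM. Library totals move the median of all genes to 0.094. With 1 library left out the log2 ratio differences ran from −0.0923 to 0.109 (Nlrp3 to Pycard, 3 of them positive: 0.0980, 0.00584 and 0.109), 0.60 to 0.82 (Casp1 to Pycard), 0.25 to 0.34 (Casp4 to Casp1) and −0.42 to −0.33 (Gsdmd to Casp1). With the replicate number as a block, the last 3 differences were unchanged at 0.68, 0.30 and −0.38, but their adjusted p was 0.208, since an exact sign-flip test over 4 pairs cannot go below p = 0.125. Same-numbered libraries did not deviate together (correlations 0.13, −0.048, 0.20 and −0.12), and the block called 2056 genes higher and 2531 lower, with no change for the 8 genes. Signs turned for Casp12 (0.031 with library totals, 0.046 with FPKM), Gsdme (0.041 with library totals), Cd68 (0.044 with library totals, 0.048 with FPKM, 0.0028 without siPAK4 replicate 2) and Nlrc4 (0.0079 without siPAK4 replicate 1, −0.27 at the other end of the range), none of them called. The cause of these changes was not tested.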
